A study of Mus musculus with 9 samples.

Results

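Translation initiation factors are the proteins that bring a ribosome, a messenger RNA and the initiator tRNA together at a start codon. They were followed here at the level of messenger RNA in group 2 innate lymphoid cells (ILC2s), tissue lymphocytes without antigen receptors that secrete type 2 cytokines. The genes were taken by name: every row of the count table whose GRCm38 symbol begins with Eif1 to Eif6, apart from the eIF2 kinases (4 genes named Eif2ak) and 6 pseudogenes. This left 48 genes of 20732 in the table, and all 48 had enough reads to be tested. The cells came from the pancreas of C57BL6/J mice that had received PBS or 200 ng of IL-33, an IL-1 family cytokine that activates ILC2s through the receptor ST2, on days 0 and 1, with harvest on day 5. The sort kept living cells that carried CD45 and KLRG1 and lacked CD3, B220 and lineage markers. Sample titles give 4 libraries called naïve, named the PBS group here, and 5 IL-33 libraries, whereas the design text gives 5 PBS mice and 4 IL-33 mice, and nothing says that each library is a separate mouse. The p-values therefore measure the spread between these libraries, which may be technical in part. No transgene, deletion or second treatment is given for either group.

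Initiation runs in steps. A ternary complex of eIF2, GTP and initiator tRNA joins the small ribosomal subunit with eIF1, eIF1A, eIF3 and eIF5, while the cap-binding protein eIF4E, the scaffold eIF4G and the helicase eIF4A (together eIF4F) prepare the 5′ end of the messenger RNA. eIF2B recharges eIF2 with GTP after each round, and eIF5B joins the large subunit. In lymphocytes, leaving rest is known to raise protein synthesis, and the kinase complex mTORC1 and the eIF2 kinases are its best known controls, acting largely on the proteins and not on the transcripts measured here.

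Total counts lay between 14216976 and 21020023 per library, and 16015 to 17573 genes had at least 1 count. PBS replicate 4 stood apart. The 34 genes of an acinar (enzyme-secreting pancreas cell) list took 54.8% of its counts, against 0.183% to 16.4% in the other 8 libraries. Globin and related erythroid transcripts summed to 168 to 323 CPM (counts over a library total scaled by the trimmed mean of M values, TMM) with PBS and 369 to 3567 CPM with IL-33, with Hbb-bs and Hbb-bt under 1 CPM on average with PBS, and the libraries highest in beta-globin were IL-33 replicates 1, 2 and 3. Cd79b, a B cell gene, averaged 16.4 CPM with PBS and 74.8 CPM with IL-33, while the B cell genes Cd79a and Ms4a1 averaged under 1 CPM in both groups. Endothelial genes summed to 37.4 to 169 CPM with PBS and 18.5 to 58.4 CPM with IL-33, where Kdr fell from a mean of 17.8 to 0.261 CPM (edgeR adjusted p = 0.0177), and the fibroblast gene Col1a2 fell from 6.79 to 0.31 CPM (edgeR adjusted p = 0.0193). The 8 ILC2 markers (among them Gata3 and Il1rl1) were all expressed and summed to 8540 to 11038 CPM with PBS and 7392 to 12266 CPM with IL-33. Within that sum Klrg1, whose protein the sort selected on, averaged 709 CPM with PBS and 1429 CPM with IL-33 and rose, while Icos fell from 613 to 217 CPM and Il7r from 652 to 269 CPM. Of the T cell receptor complex genes, Cd3g averaged 255 and 281 CPM, and Cd3e and Cd3d averaged below 6 CPM. Alternative fits left these libraries out, removed the acinar and endocrine genes, or took the acinar share as a covariate; the part of the other contents in the results below was not tested.

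Most initiation factor genes differed little between the groups, and those that differed were mostly higher with IL-33. With edgeR's quasi-likelihood test, adjusted by the Benjamini-Hochberg method over 14405 genes with a threshold of 0.05, 15 of the 48 genes were called (31.2%), against 25.2% of all genes tested. Of these, 12 rose (25% of the genes, against 13.7% of all genes) and 3 fell (6.25%, against 11.6%). Among genes with a mean of at least 20 CPM, a limit set after values were seen, 37.9% were called, 20.8% higher and 17.1% lower, and 47 of the 48 initiation factor genes lie in that range. The share of initiation factor genes called was thus near the background, and below that of abundant genes.

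Changes were small. Only 2 of the 48 genes passed the test with a change of at least 2-fold (4.17%), Eif4a2 and Eif2d, against 15.4% of all genes. The median log2 change was 0.27 for the 48 genes and -0.05 for all genes tested, and 36 of the 48 values were above 0. The CPM of the groups did not overlap for 16 of the 48 genes (33.3%), against 26.1% of all genes and 33.8% of those with at least 20 CPM. Scaling by library size alone moved the median of all genes by 0.13, to 0.08, and that of the initiation factor genes to 0.39, and 37 of the 48 lay above the median of all genes under either scaling.

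The 48 genes together took 8101, 7947, 8329 and 8177 CPM in the PBS libraries and 8871, 9509, 9243, 9537 and 9435 CPM in the IL-33 libraries. Every IL-33 library was above every PBS library, with means of 8138 ± 159 (SD, n = 4) and 9319 ± 276 (SD, n = 5). The separation held under TMM scaling. As plain shares of counts, with no such scaling, they took 0.914%, 0.927%, 0.884% and 0.434% with PBS and 0.877%, 1.03%, 0.946%, 1.00% and 1.08% with IL-33, so that IL-33 replicate 1 lay below 3 PBS libraries. More RNA per cell and more cells of a type cannot be told apart in such bulk samples.

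**Figure D1:**
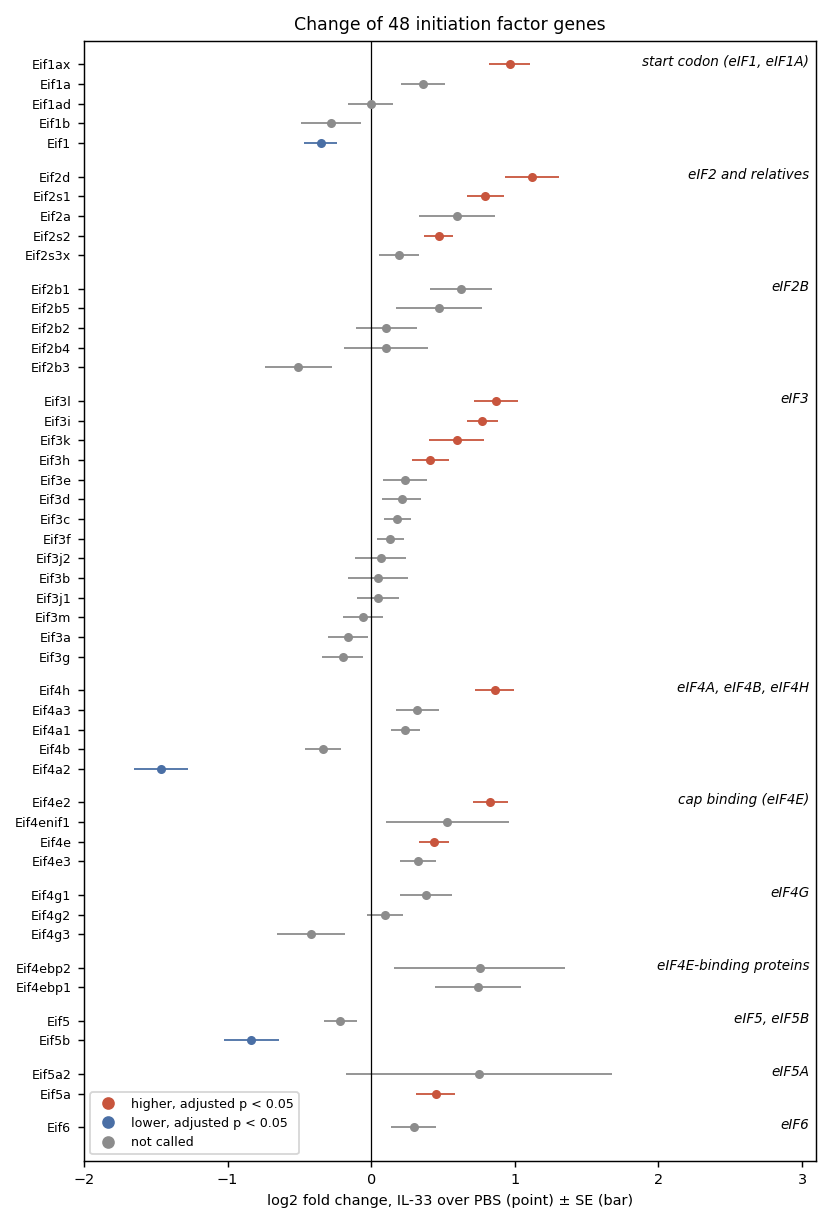
Change of each of the 48 genes, grouped by role; the x axis is the log2 fold change of IL-33 over PBS, points are the edgeR estimates and bars ± 1 SE, with red for called higher, blue for called lower and grey for not called. Eif4a2, at -1.46, lies apart from the rest on the left, and 36 of the 48 points lie to the right of 0.

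The clearest change concerned the helicase eIF4A, which unwinds structure near the cap and is encoded by a pair of paralogues, Eif4a1 and Eif4a2. Eif4a2 (ENSMUSG00000022884, GRCm38 chr16:23107444-23114136, plus strand) had 423, 395, 263 and 304 CPM in the PBS libraries and 109, 92.0, 149, 135 and 143 CPM in the IL-33 libraries. The lowest PBS library was above the highest IL-33 library. Group means were 346 ± 75.3 CPM with PBS (SD, n = 4) and 125.6 ± 24.3 CPM with IL-33 (SD, n = 5), so the gene was 2.76-fold lower (log2 change -1.46 ± 0.19 SE, edgeR adjusted p = 6.6e-04). It was called lower in all 22 alternative fits, at log2 changes from -1.57 to -1.30.

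Eif4a1 (ENSMUSG00000059796, GRCm38 chr11:69666936-69672423, minus strand) had 439, 464, 457 and 383 CPM with PBS and 473, 508, 484, 591 and 518 CPM with IL-33. The groups did not overlap, yet its log2 change of 0.24 ± 0.10 (SE) had an edgeR adjusted p of 0.111 and was called in none of the 22 alternatives. Per kilobase of transcript the level of Eif4a1 was 246 CPM with PBS and 290 CPM with IL-33, and that of Eif4a2 was 128 and 46.4 CPM.

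The balance of these paralogues was measured within each library, where scaling between libraries cancels. The ratio of Eif4a1 to Eif4a2 was 1.04, 1.18, 1.74 and 1.26 in the PBS libraries and 4.35, 5.52, 3.25, 4.37 and 3.62 in the IL-33 libraries. All IL-33 libraries were above all PBS libraries, by a mean log2 difference of 1.69. The two-sided exact permutation test gave p = 0.0159, the smallest that 4 against 5 libraries allow, and an adjusted p of 0.0714 over 9 ratios, which missed the threshold.

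Reads of both genes could be shared with other features, since strand is not stated for the library. Exons of Eif4a2 overlap those of Rfc4, on the opposite strand, by 194 bases, and Rfc4 rose from 15.1 to 68.9 CPM (log2 change 2.19 ± 0.25 SE, edgeR adjusted p = 3.5e-04), opposite in direction to Eif4a2. Small RNA genes also lie within exons of both. The processed pseudogene Eif4a-ps4, taken here as a copy of Eif4a1, held reads equal to 33.4% to 35.3% of those of Eif4a1 in PBS libraries and 35.1% to 36.6% in IL-33 libraries. Adding the reads of the 6 left-out pseudogenes to their parent genes, an alternative chosen after seeing the data, left the same 15 genes called.

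The promoters of the paralogues are shown because Eif4a2 fell while Eif4a1 was not called. Each is the 250 bases before the transcription start that RefSeq annotates on GRCm38.p6, written 5′ to 3′ on the gene's strand, at chr11:69672424-69672673 (minus) for Eif4a1 and chr16:23107218-23107467 (plus) for Eif4a2. Capitals mark CACGTG, the E-box bound by Myc, Max and related factors, which reads the same on both strands.
Eif4a1: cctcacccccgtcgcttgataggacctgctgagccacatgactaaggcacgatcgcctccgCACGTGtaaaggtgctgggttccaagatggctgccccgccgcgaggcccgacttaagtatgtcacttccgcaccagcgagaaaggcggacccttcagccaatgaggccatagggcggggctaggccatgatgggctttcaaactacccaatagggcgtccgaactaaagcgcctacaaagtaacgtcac
Eif4a2: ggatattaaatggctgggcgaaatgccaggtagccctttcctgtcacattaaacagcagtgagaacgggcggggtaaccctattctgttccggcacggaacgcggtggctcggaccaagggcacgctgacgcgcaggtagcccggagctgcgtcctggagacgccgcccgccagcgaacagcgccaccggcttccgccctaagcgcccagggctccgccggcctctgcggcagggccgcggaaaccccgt
The Eif4a1 window holds 1 match, whose first base lies 189 bases before the start, and the Eif4a2 window holds none.

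Helpers of eIF4A differed from one another. Eif4h, an RNA-binding protein that stimulates eIF4A, had 139, 104, 115 and 86.3 CPM with PBS and 194, 203, 203, 192 and 215 CPM with IL-33. No IL-33 library came near the PBS range. It rose 1.81-fold (log2 change 0.86 ± 0.14 SE, edgeR adjusted p = 0.00193) and lost its call with library size alone. Eif4b, its relative, ran from 209 to 312 CPM with PBS and from 194 to 230 CPM with IL-33, with a log2 change of -0.34 and an edgeR adjusted p of 0.0732. Without PBS replicate 4 its log2 change was -0.45 and passed (edgeR adjusted p = 0.0109), and it passed in 6 of the 22 alternatives. Eif4a3, the DEAD-box helicase of the exon junction complex, had means of 89.3 and 112 CPM and was not called.

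**Figure D2:**
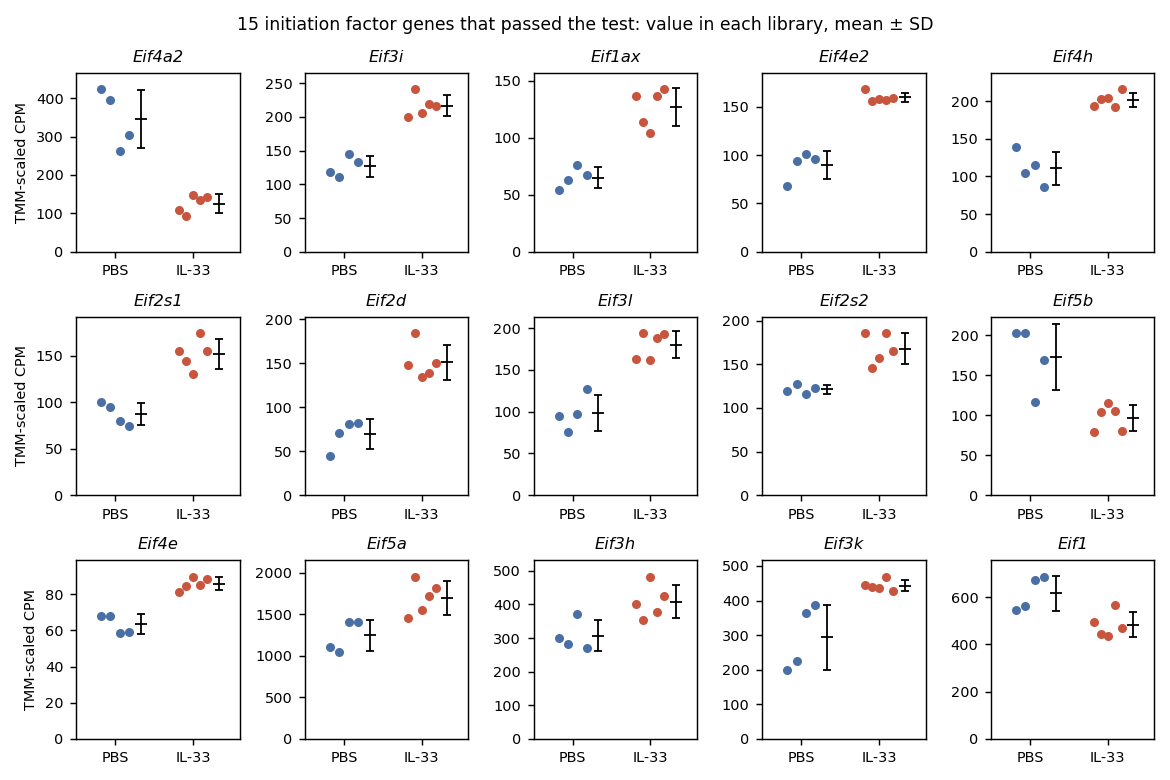
TMM-scaled CPM (y axis, from 0) of the 15 called genes in each of the 4 PBS libraries (blue) and 5 IL-33 libraries (red); black marks are the mean ± SD. The groups are clear of each other in 13 panels and overlap in those of Eif3h and Eif1, and the PBS and IL-33 points of Eif5b nearly touch.

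Among the cap-binding proteins, counted with the eIF4E transporter, 2 of 4 genes rose (50%, against 13.7% of all genes) and 0 fell. Eif4e, the cap-binding subunit of eIF4F, had 68.3, 68.2, 58.4 and 59.2 CPM with PBS and 81.2, 84.7, 89.9, 85.5 and 88.5 CPM with IL-33. The groups were narrow and separate, and the gene rose 1.35-fold (log2 change 0.44 ± 0.10 SE, edgeR adjusted p = 0.0132). The call was lost in 3 alternatives: library size alone, the replicate block and leaving out IL-33 replicates 1, 2 and 3 together. With the trend in length and GC content removed its log2 change was 0.82.

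Eif4e2 encodes 4EHP, a cap-binding protein that does not bind eIF4G and is known to repress the messages it holds. It had 68.5, 93.4, 101 and 96.2 CPM with PBS and 168, 156, 158, 157 and 159 CPM with IL-33. Its rise of 1.78-fold (log2 change 0.83 ± 0.12 SE, edgeR adjusted p = 0.00144) was called in all 22 alternatives. The ratio of Eif4e2 to Eif4e was 1.00 to 1.73 within PBS libraries and 1.75 to 2.07 within IL-33 libraries, a log2 difference of 0.41 (two-sided exact permutation p = 0.0159, adjusted p = 0.0714). The other two genes of the role, Eif4e3 and Eif4enif1 (the eIF4E transporter), had log2 changes of 0.33 and 0.53 and were not called.

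Promoters of Eif4e and Eif4h are shown as those of called genes with the E-box. They are the 250 bases before a RefSeq start on GRCm38.p6, at chr3:138527018-138527267 (plus), the window of the 2 listed for Eif4e that has matches, and at chr5:134639410-134639659 (minus) for Eif4h, with CACGTG in capitals.
Eif4e: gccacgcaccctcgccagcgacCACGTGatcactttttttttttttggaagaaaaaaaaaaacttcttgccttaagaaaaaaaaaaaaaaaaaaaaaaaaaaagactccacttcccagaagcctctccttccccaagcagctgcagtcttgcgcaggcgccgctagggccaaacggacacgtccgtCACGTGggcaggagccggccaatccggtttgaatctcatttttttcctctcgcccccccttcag
Eif4h: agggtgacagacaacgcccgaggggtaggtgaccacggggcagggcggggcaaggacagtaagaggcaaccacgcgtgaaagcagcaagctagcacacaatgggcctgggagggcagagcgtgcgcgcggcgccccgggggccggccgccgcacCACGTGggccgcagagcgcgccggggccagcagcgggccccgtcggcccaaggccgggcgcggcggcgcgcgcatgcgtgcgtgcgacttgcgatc
Eif4e has 2 matches, whose first bases lie 228 and 64 bases before the start, and Eif4h has 1 at 96 bases before.

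RefSeq windows from 250 bases before to 50 after the start were on hand for 38 of the 48 genes. CACGTG was in 10 of the 38 (26.3%), against 8.09% of all 27025 genes with a window. That background is wider than the 14405 genes tested, and no share was taken over tested or abundant genes. The 10 were Eif3k, Eif4e, Eif4h and Eif5a, called higher, and Eif1b, Eif3a, Eif3f, Eif4a1, Eif4g1 and Eif5a2, which were not called. Thus 4 of 10 genes called higher with a window held it, and 0 of 3 called lower, beside 26.3% of all 38. Most of the genes that held it were not called, and a link of the motif to the direction of change was not tested. CCGGAAGT on either strand, a site of ETS factors, was in 7 of the 38 (18.4%), against 4.31% of all genes, and Eif5a and Eif5a2 held both motifs, which do not overlap in letters. These motifs were picked after values were seen, matches only describe the letters of these windows, and no binding was measured.

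No gene of the eIF4E-binding inhibitors or of the eIF4G scaffolds was called. Eif4ebp1, which binds eIF4E unless mTORC1 phosphorylates it, had 28.4, 25.4, 46.3 and 74.3 CPM with PBS and 69.4, 86.9, 73.1, 63.9 and 70.6 CPM with IL-33. PBS replicate 4, the library rich in acinar transcripts, had a level inside the IL-33 range, and the other PBS libraries were below it. The log2 change was 0.74 ± 0.30 (SE) with an edgeR adjusted p of 0.0974, and 1.12 with an edgeR adjusted p of 0.00735 without PBS replicate 4. With the acinar share as a covariate it was 1.06 (edgeR adjusted p = 0.00429). Over all alternatives the log2 change ran from 0.56 to 1.12, and 4 of the 22 called it. Its ratio to Eif4e ran from 0.372 to 1.26 with PBS and from 0.748 to 1.03 with IL-33 (exact permutation adjusted p = 0.486). Eif4ebp2 varied from 5.08 to 26.2 CPM with PBS and from 6.42 to 41.3 CPM with IL-33.

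Of the eIF4G scaffolds, which hold eIF4E, eIF4A and eIF3 together, none of 3 was called. Eif4g2, whose protein (DAP5) lacks the eIF4E site, had 488, 474, 408 and 335 CPM with PBS and 424, 408, 498, 475 and 472 CPM with IL-33. The groups overlapped throughout (log2 change 0.10 ± 0.13 SE, edgeR adjusted p = 0.617). With the trend in length and GC content removed, its log2 change was 0.67 and passed (edgeR adjusted p = 0.0017). Eif4g1 had means of 108 and 140 CPM, and passed without IL-33 replicate 3 (log2 change 0.51, edgeR adjusted p = 0.0129). Eif4g3 had means of 66.2 and 49.5 CPM. The ratio of Eif4g3 to Eif4g1 ran from 0.376 to 0.789 with PBS and from 0.205 to 0.599 with IL-33 (exact permutation adjusted p = 0.25).

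**Figure D3:**
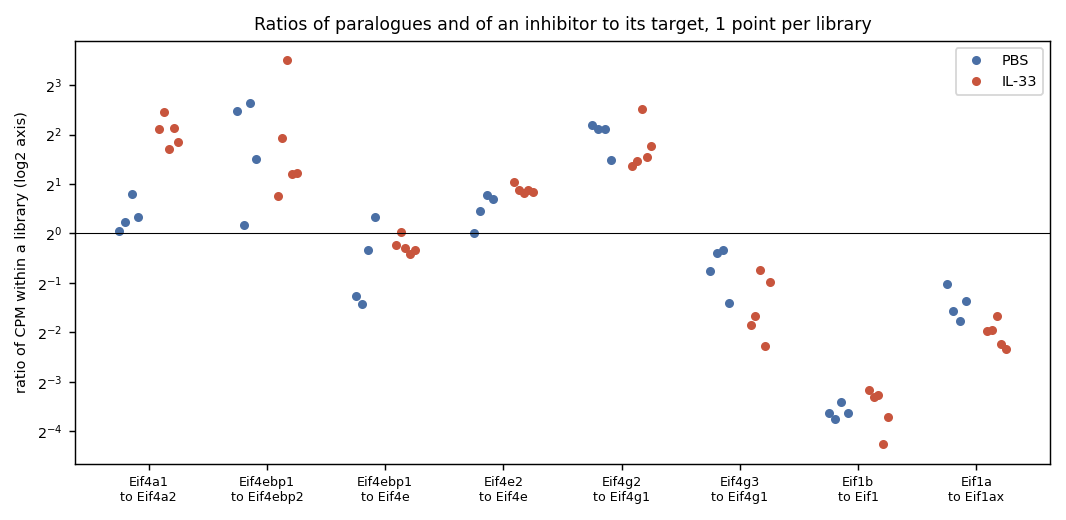
Ratios of CPM between related genes within each library on a log2 axis, 1 point per library, PBS in blue and IL-33 in red; the line marks equal CPM. The Eif4a1 to Eif4a2 points separate from 1.74 and below with PBS to 3.25 and above with IL-33, whereas most other pairs overlap. None of 9 ratios passed after adjustment, and the ratio of Eif5a2 to Eif5a is left out for its low values.

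eIF2 carries the initiator tRNA, and 2 of its 3 subunit genes rose (66.7%, against 13.7% of all genes). Eif2s1, the alpha subunit that stress kinases phosphorylate, had 100, 95.3, 80.3 and 74.7 CPM with PBS and 155, 145, 130, 174 and 155 CPM with IL-33. All IL-33 libraries were higher, and the gene rose 1.73-fold (log2 change 0.79 ± 0.13 SE, edgeR adjusted p = 0.00219), a call lost with library size alone. Eif2s2, the beta subunit, had 120, 127, 115 and 122 CPM with PBS and 185, 146, 157, 186 and 165 CPM with IL-33. Its PBS libraries were close to each other and below all IL-33 libraries, with a rise of 1.38-fold (log2 change 0.47 ± 0.10 SE, edgeR adjusted p = 0.00976) that was lost with library size alone and with the replicate block. The X-linked gamma subunit gene Eif2s3x had 50.7 to 68.6 CPM with PBS and 59.2 to 79.3 CPM with IL-33, and was not called (edgeR adjusted p = 0.341). The Y-linked gamma gene Eif2s3y had no row under that symbol in the count table.

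Eif2d rose the most of the 48 genes. Its protein can place tRNA on the small subunit without GTP and takes part in recycling of ribosomes after termination. It had 44.5, 70.6, 81.2 and 81.7 CPM with PBS and 148, 184, 134, 139 and 150 CPM with IL-33. The groups lay far apart, with a rise of 2.17-fold (log2 change 1.12 ± 0.19 SE, edgeR adjusted p = 0.00267), and the call was lost only with IL-33 replicates 1, 2 and 3 left out together. Its exons overlap those of Rassf5 on the opposite strand by 78 bases, and Rassf5 was not called. Eif2a, another protein that can bring initiator tRNA, had means of 45.3 and 68.6 CPM with overlapping groups (edgeR adjusted p = 0.13).

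None of the 5 genes of eIF2B, the exchange factor that the phosphorylated eIF2 inhibits, was called. The most abundant, Eif2b2, had 84.7, 96.4, 143 and 140 CPM with PBS and 104, 158, 152, 94.3 and 117 CPM with IL-33, with the groups mixed (log2 change 0.11 ± 0.21 SE, edgeR adjusted p = 0.756). Log2 changes of the others ran from -0.51 for Eif2b3 to 0.63 for Eif2b1. Eif2b1 was called in 2 alternatives, DESeq2 and the fit without PBS replicate 2 (log2 change 0.83, edgeR adjusted p = 0.0244).

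eIF3 is the largest factor, a ring of subunits that keeps the ribosomal subunits apart and binds the messenger RNA. Of its 14 genes 4 rose (28.6%, against 13.7% of all genes), 0 fell and 10 were not called. Eif3i, part of the core conserved from yeast, had 118, 110, 145 and 133 CPM with PBS and 200, 241, 206, 219 and 217 CPM with IL-33. The lowest IL-33 library was well above the highest PBS library, and the rise of 1.71-fold (log2 change 0.77 ± 0.11 SE, edgeR adjusted p = 0.00113) was called in all 22 alternatives, with a log2 change of 0.40 once the trend in length and GC content was removed. Eif3l, whose protein pairs with that of Eif3k at the edge of the complex, had 94.3, 75.3, 97.3 and 127 CPM with PBS and 164, 194, 162, 188 and 193 CPM with IL-33. It rose 1.83-fold (log2 change 0.87 ± 0.15 SE, edgeR adjusted p = 0.00323), also in all 22 alternatives.

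The other two called subunits were near the threshold. Eif3k had means of 293 ± 94.7 CPM (SD, n = 4) and 443 ± 16.1 CPM (SD, n = 5), with PBS replicates 1 and 2 low at 199 and 225 CPM and PBS replicates 3 and 4 at 363 and 386 CPM. The groups did not overlap. Its log2 change of 0.59 ± 0.19 (SE) had an edgeR adjusted p of 0.0489. It was called in 10 of 22 alternatives and in none that left out 1 IL-33 library (each of replicates 1 to 5 in turn) or PBS replicate 1 or 2, where the edgeR adjusted p ran from 0.074 to 0.125. Eif3h ran from 272 to 373 CPM with PBS and from 354 to 483 CPM with IL-33, so the groups overlapped (log2 change 0.41 ± 0.13 SE, edgeR adjusted p = 0.0414). It was called in 7 of 22 alternatives, and of the fits leaving out 1 library in those without PBS replicate 3 (log2 change 0.52) and without IL-33 replicate 2 (0.46). Leaving out any other single library (PBS replicates 1, 2 and 4, IL-33 replicates 1, 3, 4 and 5) gave an edgeR adjusted p of 0.0628 to 0.108. With the trend in length and GC content removed the log2 change was 0.18 for Eif3k (edgeR adjusted p = 0.381) and 0.13 for Eif3h (edgeR adjusted p = 0.533).

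The remaining eIF3 genes had log2 changes from -0.20 for Eif3g to 0.24 for Eif3e. Eif3f had 414, 381, 402 and 423 CPM with PBS and 412, 417, 521, 428 and 442 CPM with IL-33, with 1 high IL-33 library and overlapping ranges (log2 change 0.13 ± 0.10 SE, edgeR adjusted p = 0.341). Levels per kilobase spread widely among subunits of the complex. They rest on the length of the longest annotated protein-coding transcript, and which transcripts the cells used was not measured. These levels ran from 7.97 CPM with PBS and 8.24 CPM with IL-33 for Eif3j1, a loosely bound subunit, to 323 and 488 CPM for Eif3k. Eif3j1 shares its name and close sequence with Eif3j2, so their reads could be divided between them, and their levels are uncertain.

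**Figure D4:**
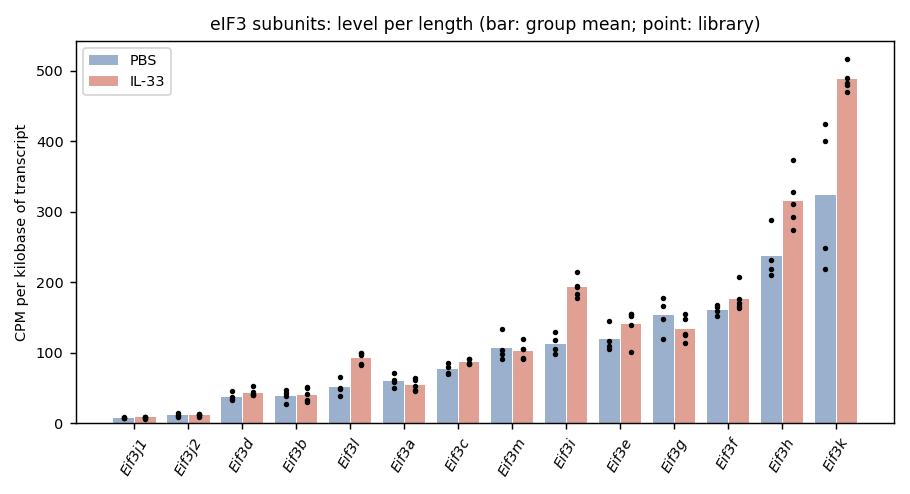
Level of each eIF3 gene as CPM per kilobase of transcript (y axis, from 0), ordered by the PBS mean; bars are group means (blue PBS, red IL-33) and black points are libraries. The red bars stand clear of the blue for Eif3i, Eif3l and Eif3k, the points of Eif3h overlap, and Eif3j1 and Eif3j2 are the lowest of the 14.

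Start codon factors moved in both directions. eIF1A and eIF1 open the small subunit for scanning and set how strictly a start codon is chosen. Eif1ax, the X-linked gene of eIF1A, had 53.9, 62.6, 75.7 and 67.7 CPM with PBS and 137, 114, 104, 136 and 142 CPM with IL-33. It rose 1.95-fold with no overlap (log2 change 0.96 ± 0.14 SE, edgeR adjusted p = 0.0014) in all 22 alternatives. Its autosomal paralogue Eif1a had at most 26.6 CPM with PBS and at least 28.3 CPM with IL-33, so the groups did not overlap, and was not called (log2 change 0.36, edgeR adjusted p = 0.111). The ratio of Eif1a to Eif1ax ran from 0.292 to 0.494 with PBS and from 0.199 to 0.314 with IL-33 (exact permutation p = 0.0317, adjusted p = 0.0952).

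Eif1 had 544, 561, 671 and 687 CPM with PBS and 495, 444, 437, 566 and 471 CPM with IL-33. IL-33 replicate 4 lay within the PBS range, and the others were below it. It fell by 0.35 ± 0.11 (SE) on the log2 scale with an edgeR adjusted p of 0.0499, and was called in 9 of 22 alternatives. It fell by 0.60 with the trend in length and GC content removed, and its log2 change was -0.20 with library size alone, which did not call it. Of the fits leaving out 1 library, those without PBS replicate 1 (edgeR adjusted p = 0.0469) and without IL-33 replicate 4 (0.0269) called it. Leaving out any of the rest (PBS replicates 2, 3 and 4, IL-33 replicates 1, 2, 3 and 5) gave an edgeR adjusted p of 0.0631 to 0.11. Eif1b, which encodes a closely similar protein, had means of 51.3 and 42.2 CPM, and Eif1ad had 51.7 and 51.6 CPM.

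Of the genes of eIF5 and eIF5B, Eif5b was called lower and Eif5 was not called. Eif5b, the GTPase that joins the large subunit, had 203, 203, 116 and 169 CPM with PBS and 78.8, 104, 115, 105 and 80.9 CPM with IL-33. PBS replicate 3 was barely above the highest IL-33 library. The gene was 1.78-fold lower (log2 change -0.83 ± 0.19 SE, edgeR adjusted p = 0.0107) and was called in 18 of 22 alternatives. Long genes tended to be lower with IL-33 over the whole table: among 2867 genes with the shortest transcripts the median was 0.40 on the log2 scale, and among the 2866 with the longest, which include Eif5b at 7797 bases, it was -0.54. With the trend in length and GC content removed its log2 change was -0.26 and no longer passed (edgeR adjusted p = 0.31). Its exons also overlap Rev1, which was not called, by 1643 bases on the opposite strand. Eif5, which makes eIF2 hydrolyse its GTP, had 384, 391, 293 and 332 CPM with PBS and 309, 277, 288, 347 and 285 CPM with IL-33, and was not called (log2 change -0.22 ± 0.12 SE, edgeR adjusted p = 0.206).

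Eif5a had the most reads of the 48 genes and the highest level per kilobase, 867 CPM with PBS and 1182 CPM with IL-33. Its protein, which carries the modified lysine hypusine, helps ribosomes through proline runs in elongation and in termination. It had 1108, 1052, 1411 and 1410 CPM with PBS and 1451, 1957, 1551, 1721 and 1813 CPM with IL-33. The groups did not overlap but came close, at 1411 and 1451 CPM. The rise of 1.36-fold (log2 change 0.45 ± 0.13 SE, edgeR adjusted p = 0.0352) was called in 11 of 22 alternatives, and not in any fit without one of PBS replicates 1 and 2 and IL-33 replicates 2, 4 and 5 (log2 changes 0.38 to 0.43, edgeR adjusted p from 0.0752 to 0.0947). With the trend in length and GC content removed its log2 change was 0.11 (edgeR adjusted p = 0.468). Eif5a2, its paralogue, was the lowest of the genes with 298 reads over 9 libraries and means of 1.20 and 2.04 CPM. Eif6, which keeps the large subunit from joining too early, had 201, 230, 221 and 240 CPM with PBS and 260, 377, 273, 237 and 221 CPM with IL-33, and was not called (log2 change 0.29 ± 0.16 SE, edgeR adjusted p = 0.198).

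**Figure D5:**
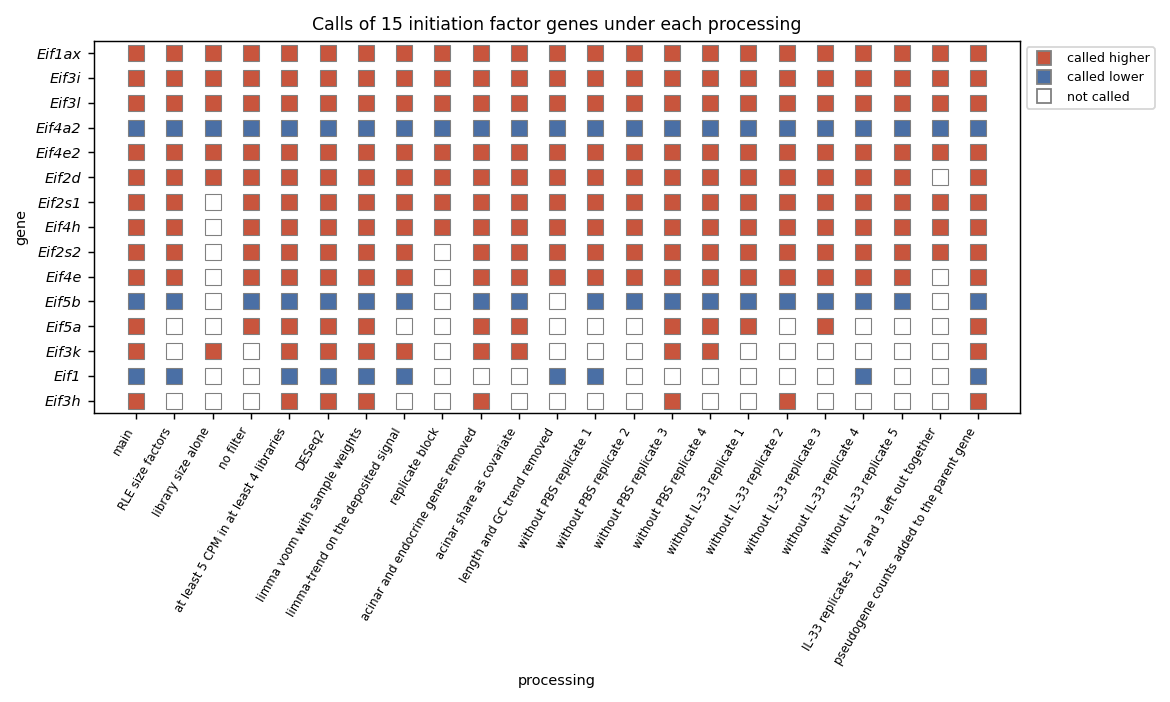
Calls of the 15 genes (rows) in the reported fit and 22 alternatives (columns); red is called higher, blue called lower and white not called at an adjusted p of 0.05. The 5 top rows are filled throughout, and the 4 bottom rows (Eif5a, Eif3k, Eif1 and Eif3h) are filled in at most 11 of the 22 alternatives.

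The 15 calls were not equally firm. Eif1ax, Eif3i, Eif3l, Eif4a2 and Eif4e2 were called in all 22 alternatives, 11 of the 15 in at least 18, and Eif5a, Eif3k, Eif1 and Eif3h in fewer than 12. Without PBS replicate 4, 15 genes were called and 13 were shared with the full set: Eif1 and Eif3h were lost, and Eif4b and Eif4ebp1 gained. Without IL-33 replicates 1, 2 and 3 together 8 were called, all shared. With the trend in length and GC content removed 17 were called and 11 shared, with Eif1a, Eif1b, Eif3c, Eif3g, Eif3j1 and Eif4g2 gained and Eif3h, Eif3k, Eif5a and Eif5b lost. In that fit 13 were higher and 4 lower, and the median log2 change was 0.18 for the 48 genes and -0.07 for all genes. Across the 48 genes the Spearman correlation of length with log2 change was -0.06, against -0.32 over 14327 genes; these are descriptions across genes of the same 9 libraries.

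Controls of initiation were read from lists of the same pathway. Of the 4 eIF2 kinases 0 rose and 1 fell (25%, against 11.6% of all genes). Eif2ak4, the kinase that senses uncharged tRNA, averaged 10.4 ± 6.21 CPM with PBS (SD, n = 4) and 4.09 ± 1.05 CPM with IL-33 (SD, n = 5). Its groups overlapped (log2 change -1.35 ± 0.43 SE, edgeR adjusted p = 0.0463). The transcript of Eif2ak4, of 5298 bases, is among the 2866 longest. Its value with the trend in length and GC content removed is not given here. Eif2ak3, the kinase of the endoplasmic reticulum, had means of 12.8 and 5.57 CPM and was not called (edgeR adjusted p = 0.142). Of 11 tested genes of the integrated stress response, the programme downstream of phosphorylated eIF2, 4 rose and 1 fell. These are 36.4% higher and 9.09% lower, against 13.7% and 11.6% of all genes. Psat1, an enzyme of serine synthesis, had 45.3, 32.1, 40.8 and 43.1 CPM with PBS and 149, 147, 118, 164 and 164 CPM with IL-33 (log2 change 1.88 ± 0.15 SE, edgeR adjusted p = 6.7e-05). Slc7a11, Ddit4 and Sesn2 rose too and were chosen after their values were seen, with overlapping groups for Ddit4 and Sesn2. Ppp1r15a, the phosphatase subunit that reverses eIF2 phosphorylation, had 1686, 1815, 1950 and 1888 CPM with PBS and 647, 824, 1471, 749 and 1074 CPM with IL-33. All IL-33 libraries were lower (log2 change -0.94 ± 0.22 SE, edgeR adjusted p = 0.0121). The list's median was 0.04, with transcripts of Atf4, its central factor, not called. Ddit3 (log2 change 0.04) and Asns (-0.15) were also among the 6 not called, and Trib3, Chac1 and Cth had too few reads to be tested.

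Of 15 genes of mTORC1 signalling, eIF4E kinases and related controls 0 rose and 4 fell (26.7%, against 11.6% of all genes), with a median log2 change of -0.36. The list mixes activators and inhibitors, so its counts and median give no direction for the pathway. Pdcd4, which binds eIF4A and blocks it, had 193, 202, 138 and 127 CPM with PBS and 84.7, 54.4, 92.2, 59.1 and 54.1 CPM with IL-33. It fell without overlap (log2 change -1.26 ± 0.22 SE, edgeR adjusted p = 0.00309). Deptor, an inhibitor of mTOR, had 30.9, 37.7, 53.5 and 96.1 CPM with PBS and 8.51, 13.9, 19.5, 7.24 and 5.41 CPM with IL-33, again without overlap (log2 change -2.32 ± 0.45 SE, edgeR adjusted p = 0.00508). The eIF4E kinase Mknk1 and the mTORC1 scaffold Rptor, named after their values were seen, also fell, with overlapping groups. For Mknk1, PBS replicate 4 had 77.7 CPM and the other PBS libraries 14.9 to 24.6 CPM. Deptor (8547 bases) and Rptor (6594 bases) are among the 2866 genes with the longest transcripts, whose median log2 change was -0.54. So are Larp1, Eef2k, Tsc1, Tsc2, Rps6kb1 and Mtor, which were not called. Pdcd4 (2408 bases) and Mknk1 (2552 bases) are not. Values of these single genes with the trend in length and GC content removed are not given here.

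Among 11 other initiation proteins 1 rose and 1 fell (9.09% each, against 13.7% and 11.6% of all genes). Ddx3x, a DEAD-box helicase that acts on structured leaders, had 626, 676, 503 and 413 CPM with PBS and 261, 171, 242, 242 and 210 CPM with IL-33. It fell without overlap by 1.30 ± 0.17 (SE) on the log2 scale (edgeR adjusted p = 7.5e-04). Its transcript, of 4692 bases, is among the 2866 longest. Its value with the trend in length and GC content removed is not given here. Metap2, which trims the initiator methionine, rose by 0.36 ± 0.11 (SE) (edgeR adjusted p = 0.0433). Of 7 elongation factor genes 1 rose (14.3%, against 13.7% of all genes). This gene, Eef1b2, encodes the exchange factor subunit and had 205 to 230 CPM with PBS and 301 to 334 CPM with IL-33 (log2 change 0.56 ± 0.08 SE, edgeR adjusted p = 0.00151). Eef2 had means of 1676 and 2023 CPM without overlap and was not called (edgeR adjusted p = 0.0916).

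No gene was called among 5 of termination and recycling, 7 of poly(A) binding and the 2 that make hypusine. The lowest edgeR adjusted p of each list was 0.165 for Etf1, the release factor that reads stop codons, 0.0583 for Paip2b, an inhibitor of poly(A)-binding protein, and 0.0968 for Dohh, the hydroxylase of the hypusine pathway. Next in each list came Abce1 (means 38.1 and 30.8 CPM), Pan3 (55.2 and 36.3 CPM) and Dhps (20.6 and 27.7 CPM). Of 8 mitochondrial translation factor genes 2 rose (25%, against 13.7% of all genes). They were Tufm (22.6 to 46.8 CPM, log2 change 1.05 ± 0.23 SE, edgeR adjusted p = 0.00862) and Tsfm (19.8 to 40.1 CPM, log2 change 1.02 ± 0.30 SE, edgeR adjusted p = 0.0338). They encode the mitochondrial elongation factor that delivers tRNA and its exchange factor. Together 8 of the 70 genes tested in these lists rose (11.4%, against 13.7% of all genes) and 7 fell (10%, against 11.6%), with a median log2 change of -0.08; these shares are near the background. With the trend in length and GC content removed, 8 genes of these lists were called higher and 6 lower.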

How the data were processed

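RNA of 9 libraries (4 PBS, 5 IL-33) was sequenced from 5 to 15 ng with a low-input kit as paired reads of 150 nt, per the labels' protocols. The authors deposited whole-number counts per gene and a table of normalized signal, in which every column is that library's counts over a constant, as the values show. The submitters' processing notes name STAR 2.7.7a, Salmon 1.6.0, Trimmomatic 0.39, DESeq2 and the build GRCm38.p6. Which of them made the counts, and with which annotation, is not given in the sources used here. Of 20732 genes, 99.2% matched a symbol in GENCODE M21, whose longest protein-coding transcript gave lengths.

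The test was edgeR's robust quasi-likelihood F-test (version 4.0.16, R 4.3.3), two-sided, after filterByExpr (minimum count 10) and TMM scaling, with Benjamini-Hochberg adjustment over 14405 genes. The biological coefficient of variation was 0.560. CPM are TMM-scaled, and SE is the log2 change divided by the square root of F. Ratios are of CPM, tested on log2 of CPM plus 0.5 with SciPy 1.17.1. In data simulated for this comparison over 13862 genes, the test called 20.2% of the 99 genes given a 2-fold change and 49.5% of the 93 given a 4-fold change. Few genes were changed there, whereas 25.2% of all genes were called in the real data, so the adjustment was stricter in the simulation. The median coefficient of variation of the initiation factor genes was 16.3% with PBS and 12.5% with IL-33. The simulated shares therefore do not give the chance of calling an initiation factor gene, which was not tested.

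The genes and lists were chosen with earlier results of these data known. Library values are given for the 12 called genes with the smallest adjusted p and the most abundant gene of each role. Of each other list the 2 genes with the smallest adjusted p are named, some by means alone, and other genes were named after their values were seen. Alternatives were RLE size factors, library size alone, other filters, DESeq2 1.42.0, limma 3.58.1 (voom, and trend on the deposited signal), a replicate block, the acinar genes removed or as a covariate, the length and GC trend removed, libraries left out and a threshold of 0.01. No 2 replicates of a group were alike within counting error (chi-square over its degrees of freedom at least 55.7).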

Additional observations from a re-analysis of the deposited data

Results flagged for a closer look

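Values of 44 groups of libraries were examined for a library far from the rest, and 2 were found; chance gives about 1 in 20. Eif3f stood at 521 CPM in IL-33 replicate 3, with 412 to 442 CPM in the other IL-33 libraries. Eif4e2 stood at 168 CPM in IL-33 replicate 1, with 156 to 159 CPM in the others, which leaves all 5 above the PBS libraries.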

How the results depend on the processing

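Of 1055 gene values under the alternatives, 267 were called as in the reported fit, 63 lost the call, 19 gained one, 706 were called in neither and 0 reversed. Initiation factor genes called were 7 higher and 1 lower with library size alone, with the replicate block, and with IL-33 replicates 1, 2 and 3 left out together; 1 was lower at a threshold of 0.01. Leaving out 1 library gave 9 to 12 higher and 2 to 3 lower. Over all genes, library size alone called 644 lower, and 1332 higher. The replicate block called 791 higher and 666 lower, leaving out the 3 IL-33 libraries 732 and 664, and the threshold of 0.01 1019 and 767. In the other translation lists together, genes higher and lower were 5 and 4 with library size alone, 3 and 4 with the replicate block, and 3 and 3 at 0.01. There 2 were higher without the 3 IL-33 libraries, 4 lower with no filter and 11 lower with DESeq2. Leaving out 1 library gave 5 to 7 higher and 4 to 8 lower there. Libraries of the same number correlated at -0.09 to 0.07 and 0 of 4 PBS libraries correlated best with their own number. Pairing by number was thus not seen, though low correlations cannot exclude it. Depth limits Eif5a2, with 298 reads in all.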
